A study of Mus musculus with 4 samples.

Results

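The Arp2/3 complex and the cofilins build and take apart branched actin. The 10 genes described here were taken by name: the Arp2/3 subunits Arpc1a, Arpc1b, Arpc2, Arpc3, Arpc4, Arpc5, Arpc5l and Actr2, and the cofilins Cfl1 and Cfl2. All 10 were present among the 12700 genes of the count table. They were measured in brains of 9 months old C57BL/6 mice, from Ids-ko animals (genotype Ids-/-), a model of Hunter syndrome in which the lysosomal enzyme iduronate 2-sulfatase is missing, and from wild type (wt) littermates. Each brain was divided into the cerebral cortex (Cx) and an area M made of midbrain, diencephalon and hippocampus, and total RNA of 7 mice was pooled for each condition before polyA RNA was purified. This gave 1 library for Ids-ko cortex (CxH), 1 for wt cortex (CxWT), 1 for Ids-ko M (MH) and 1 for wt M (MWT). With no replicate, the spread between mice is unknown, no p-value is given, and every error below covers the counting of reads only.

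The Arp2/3 complex nucleates a new actin filament on the side of an existing one. Its core holds the actin-related proteins Arp2 (Actr2) and Arp3 (Actr3, or its relative Actr3b), held by the subunits ArpC1 to ArpC5, and 2 of these come from alternative genes: ArpC1 from Arpc1a or Arpc1b, and ArpC5 from Arpc5 or Arpc5l. Arpc1b is the form typical of leukocytes, which include the microglia of the brain. Cofilin binds actin filaments, severs them and removes branches; Cfl1 is the non-muscle form and Cfl2 the form first known from muscle. In neurons branched actin shapes dendritic spines and growth cones, and in microglia it drives motile processes and phagocytosis.

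2 properties of the libraries touch every direction given below. Ids, the gene targeted in the model, was listed at 135 reads per 1000000 aligned reads (RPM) in CxH and 354 in CxWT, but at 368 RPM in MH and 155 in MWT, so that the library labelled MH had 2.37 times the Ids level of the library labelled MWT. Area markers went against the area labels of CxWT and MH. The summed level of 15 cortical excitatory neuron markers was 2437 RPM in CxH against 511 in CxWT, and 2267 in MH against 451 in MWT. That of 19 midbrain and diencephalon markers was 68.4 RPM in CxH against 658 in CxWT, and 88.3 in MH against 543 in MWT, with En1 and Sox14 at 0 reads in MH and Nr4a2 running opposite to the rest. The area M includes the hippocampus, whose neurons share several of the cortical markers. The labels or count columns of these libraries may be exchanged. Exchanging CxWT and MH would bring the area markers into the order of the labels but leave Ids low in the library labelled MWT. This was not tested, and it would change what each comparison between genotypes or areas compares. The libraries keep their labels here, and whether Ids status, area or another property of a library goes with a difference in an actin gene cannot be told apart. Depth on genes ran from 16380080 reads in MWT to 23475080 in CxH.

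The promoters of Arpc1b and Cfl2, both called in CxH vs. CxWT, are shown beside those of their paralogs Arpc1a and Cfl1. Each stretch holds 300 bases around the RefSeq start (GRCm38.p6), most of them upstream, read along the gene. Capitals mark GGGCGG (the GC box) and GAGGAA (a purine-rich core of the kind bound by the myeloid factor PU.1), on either strand, with overlapping matches counted separately.

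Arpc1a, chr5:145083619-145083918, plus strand: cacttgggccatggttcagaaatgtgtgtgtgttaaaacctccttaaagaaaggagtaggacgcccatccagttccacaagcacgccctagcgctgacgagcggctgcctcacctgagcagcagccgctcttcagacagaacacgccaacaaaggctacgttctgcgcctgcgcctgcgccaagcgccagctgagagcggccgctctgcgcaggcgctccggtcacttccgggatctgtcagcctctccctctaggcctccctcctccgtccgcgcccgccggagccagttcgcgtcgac

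Arpc1b, chr5:145114006-145114305, plus strand: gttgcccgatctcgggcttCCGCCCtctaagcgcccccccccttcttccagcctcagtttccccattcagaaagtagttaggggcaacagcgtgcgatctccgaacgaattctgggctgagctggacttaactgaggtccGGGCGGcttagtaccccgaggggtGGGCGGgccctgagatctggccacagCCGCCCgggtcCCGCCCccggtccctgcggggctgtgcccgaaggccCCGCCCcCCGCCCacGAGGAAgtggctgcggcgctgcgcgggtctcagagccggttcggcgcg

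Cfl1, chr19:5490205-5490504, plus strand: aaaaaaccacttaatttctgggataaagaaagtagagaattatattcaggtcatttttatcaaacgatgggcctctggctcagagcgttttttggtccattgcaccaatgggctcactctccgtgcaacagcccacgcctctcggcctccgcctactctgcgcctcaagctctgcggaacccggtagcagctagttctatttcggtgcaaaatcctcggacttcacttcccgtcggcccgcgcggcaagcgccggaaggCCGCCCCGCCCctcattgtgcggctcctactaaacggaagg

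Cfl2, chr12:54862828-54863127, minus strand: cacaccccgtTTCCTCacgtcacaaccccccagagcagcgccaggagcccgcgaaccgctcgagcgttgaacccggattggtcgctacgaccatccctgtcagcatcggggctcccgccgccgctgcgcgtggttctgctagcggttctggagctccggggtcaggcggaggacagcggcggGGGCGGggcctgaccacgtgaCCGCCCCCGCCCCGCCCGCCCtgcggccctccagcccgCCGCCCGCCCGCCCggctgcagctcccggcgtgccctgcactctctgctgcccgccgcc

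The GC content was 63.0% for Arpc1a and 69.3% for Arpc1b, 54.7% for Cfl1 and 75.3% for Cfl2, against a median of 52.7% over 32851 promoters. GGGCGG was found 7 times for Arpc1b and 0 times for Arpc1a, 8 times for Cfl2 and 2 times for Cfl1, and 35.7% of all promoters held it at least once. Arpc3, also called in CxH vs. CxWT, held it 2 times in a promoter of 52.7% GC. Among members not called in that pair, Actr2 held it 5 times, Arpc2 and Arpc5 3 times each and Arpc4 0 times. GAGGAA was found 1 time each for Arpc1b and Cfl2, and 28.3% of all promoters held it. A CArG box, the motif of serum response factor, which regulates many actin genes, was searched too. Among the 9 members with an entry it was found in the promoter of Arpc4, 1 time, and 1.63% of all promoters held it. These are letter matches. Arpc1a and Arpc1b are neighbours on chromosome 5 (mm9, 145844699 to 145869630 and 145875084 to 145891574, both on the plus strand).

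Arpc1b, the leukocyte form of ArpC1, had 555 reads in CxH and 230 in CxWT, and 262 reads in MH and 222 in MWT. This was 14.4 RPM in CxH against 6.84 in CxWT, and 7.01 in MH against 7.67 in MWT. CxH stood apart, while the other 3 libraries did not differ beyond their counting intervals. In CxH vs. CxWT the log2 ratio was 1.08 ± 0.11 (counting SE), a 2.11-fold higher level in CxH. In MH vs. MWT it was −0.13 ± 0.13, with an interval from −0.39 to 0.13.

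Arpc1a, its widely expressed paralog, followed another order, with 100.5 RPM in CxH against 74.3 in CxWT, and 66.1 in MH against 102.2 in MWT. CxH and MWT did not differ beyond counting error, and both were above CxWT and MH. The log2 ratio was 0.44 ± 0.037 in CxH vs. CxWT and −0.63 ± 0.039 in MH vs. MWT. Of the reads of the pair, Arpc1b took 12.5% in CxH (95% interval 11.6 to 13.6%, exact Clopper-Pearson), 8.43% in CxWT, 9.59% in MH and 6.98% in MWT. These shares do not depend on the library total, and CxH again had the highest.

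Arpc5l, the alternative ArpC5 subunit, was listed at 29.5 RPM in CxH against 20.2 in CxWT, and 16.5 in MH against 33.9 in MWT. All 4 levels differed beyond counting error, with MWT highest and MH lowest, though with a correction for GC content and length CxH and MWT were nearly level (log2 ratio 0.04). Its log2 ratio was −1.04 ± 0.074 in MH vs. MWT, a level in MWT 2.06 times that in MH, and 0.54 ± 0.070 in CxH vs. CxWT. Arpc5, the other gene for this subunit, was at 35.2 RPM in CxH against 27.2 in CxWT, and 33.9 in MH against 34.7 in MWT. Here CxWT was below the other 3, and these 3 did not differ beyond counting error. Arpc5l thus took 45.5% of the reads of its pair in CxH against 42.6% in CxWT, and 32.7% in MH against 49.4% in MWT. With the same correction, in MH vs. MWT Arpc5l stood at −0.74 and Arpc5 at 0.32. Arpc5 then stood at 0.45 in CxH vs. MWT and at −0.10 in CxWT vs. MWT, so CxWT no longer stood apart from MWT.

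Arpc3, a small subunit that contacts Arp3, was listed at 104.2 RPM in CxH against 57.2 in CxWT, and 76.2 in MH against 68.2 in MWT. CxH was highest and CxWT lowest. The log2 ratio was 0.86 ± 0.040 in CxH vs. CxWT, 1.82-fold, and 0.16 ± 0.042 in MH vs. MWT. Arpc4, which with Arpc2 forms the structural centre of the complex, was at 56.7 RPM in CxH against 35.3 in CxWT, and 37.8 in MH against 44.8 in MWT. Its log2 ratio in CxH vs. CxWT, 0.69 ± 0.052, lay just below the threshold of 0.7 used for a call.

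Arpc2 was at 56.2 RPM in CxH against 38.3 in CxWT, and 54.8 in MH against 44.0 in MWT. CxH and MH did not differ beyond counting error (log2 ratio 0.04 ± 0.044), and both were above CxWT and MWT. Actr2, the Arp2 subunit, was the flattest member, at 107 RPM in CxH against 113 in CxWT, and 118 in MH against 130.1 in MWT. Its log2 ratio was −0.08 ± 0.032 in CxH vs. CxWT and −0.15 ± 0.032 in MH vs. MWT.

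**Figure D1:**
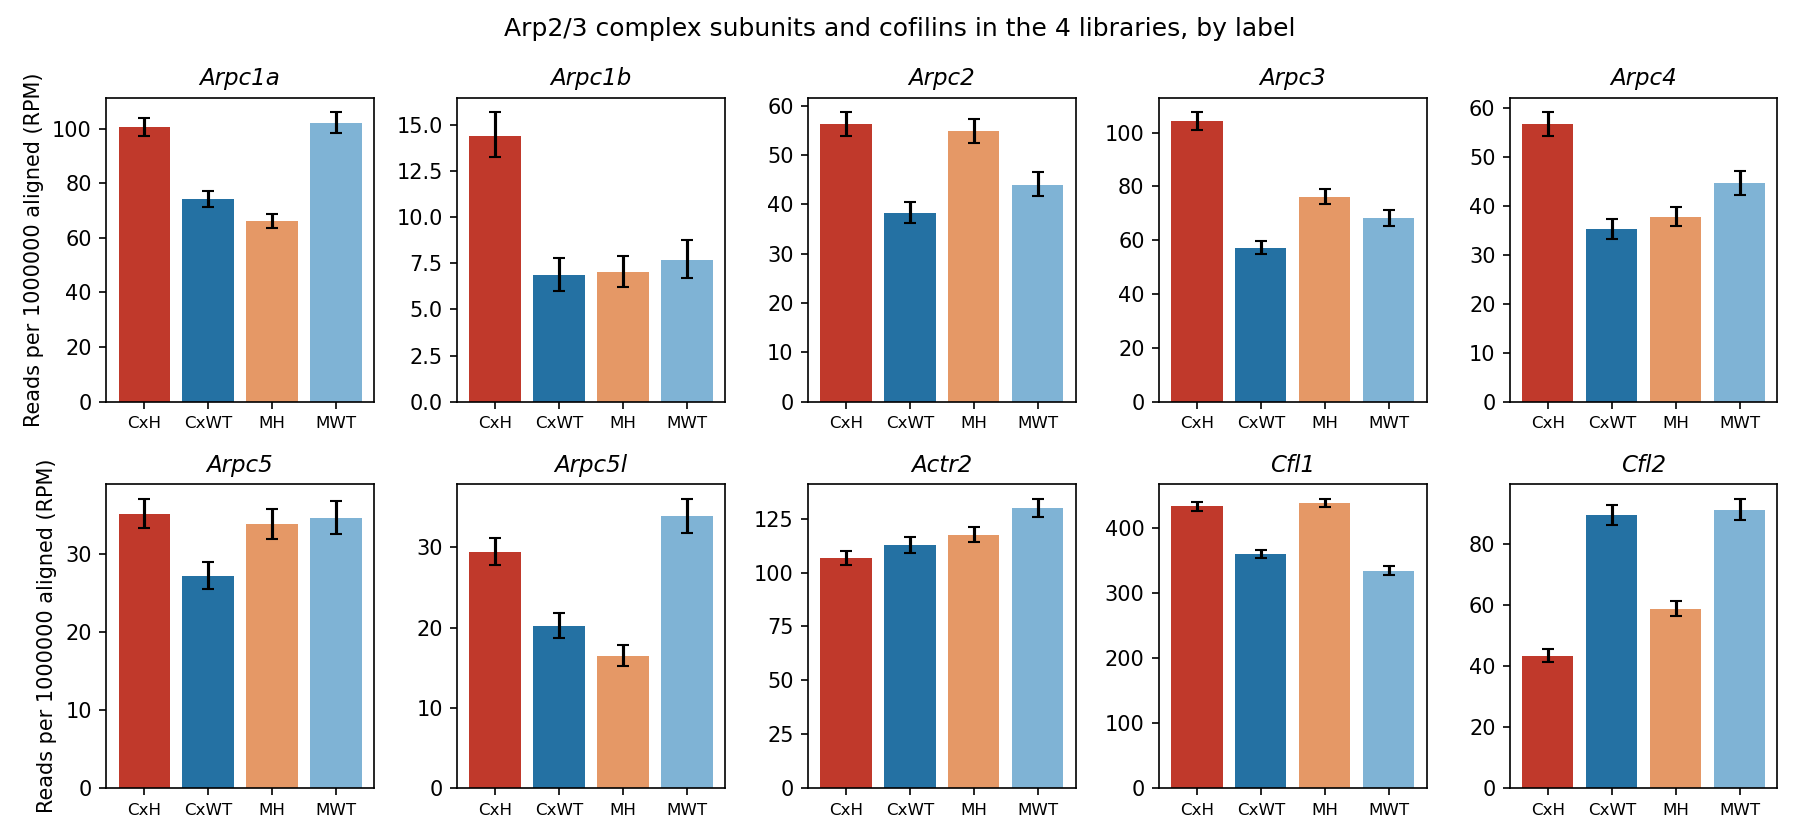
Level of each of the 10 genes, in reads per 1000000 aligned reads (RPM), in the libraries labelled CxH, CxWT, MH and MWT (1 library each, pooled RNA of 7 mice). Bars are the level and whiskers the 95% exact binomial interval, which covers counting error only. CxH is far above the other libraries for Arpc1b, MH is lowest for Arpc5l, and CxH and MH lie below CxWT and MWT for Cfl2.

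Cfl1, the main cofilin of non-muscle cells, had the highest level of the members on the RPKM scale, which is RPM per kilobase of transcript, from 291 in MWT to 382 in MH. Arpc3 was the highest subunit on that scale, from 63.7 in CxWT to 115.9 in CxH, and Arpc1b the lowest, from 2.20 in CxWT to 4.64 in CxH, and both held these places by coding length. In RPM, Cfl1 was at 433 in CxH against 360 in CxWT, and 438 in MH against 334 in MWT. CxH and MH did not differ beyond counting error and were above the other 2 libraries. Its log2 ratio was 0.27 ± 0.017 in CxH vs. CxWT and 0.39 ± 0.019 in MH vs. MWT. The genome holds 4 other places that match 50% or more of the Cfl1 transcript at 85% identity or more, up to 97.8%, so that reads of Cfl1 could be shared with copies. Arpc5 and Actr2 have 2 such places each, Arpc1a has 1, and the other 6 members have 0.

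Cfl2 followed a nearly opposite order, with 43.5 RPM in CxH against 89.6 in CxWT, and 58.8 in MH against 91.4 in MWT. CxWT and MWT did not differ beyond counting error and lay above MH, which lay above CxH. The log2 ratio was −1.04 ± 0.044 in CxH vs. CxWT, a level in CxWT 2.06 times that in CxH, and −0.64 ± 0.042 in MH vs. MWT. Cfl2 took 9.12% of the cofilin reads in CxH against 20.0% in CxWT, and 11.8% in MH against 21.5% in MWT. Cfl2 is poor in GC, at 36.9% of its transcript against 53.6% for Cfl1, and across all genes the log2 ratios of CxH vs. CxWT rose with GC content (Spearman correlation 0.461 across genes, which are not independent). After correction for GC content and length the Cfl2 ratio was −0.45 in CxH vs. CxWT and −0.09 in MH vs. MWT, so its call was lost, and how much of the difference goes with base composition was not tested further.

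**Figure D2:**
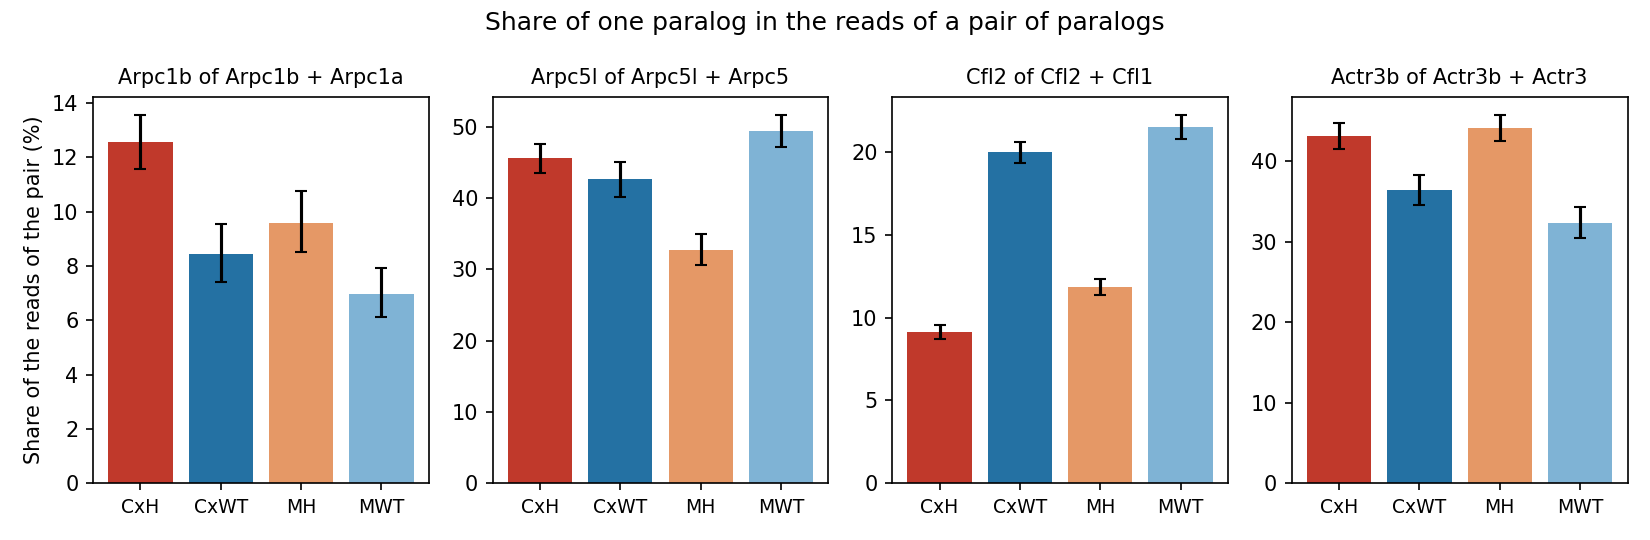
Share (%) that Arpc1b, Arpc5l, Cfl2 and Actr3b each took of the reads of their pair of paralogs in the 4 libraries, with exact 95% binomial intervals (counting error only). The Arpc1b share is highest in CxH at 12.5%, the Arpc5l share is lowest in MH at 32.7%, and the Cfl2 share is 20.0% in CxWT and 21.5% in MWT against 9.12% in CxH and 11.8% in MH.

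Per base, the alternative forms differed from their paralogs by different amounts. By the longest transcript the log2 ratio of Arpc1b to Arpc1a was −3.73 ± 0.065 in CxH and −4.66 ± 0.10 in MWT, with the other 2 libraries between. The longest Arpc1b transcript, of 3105 bases, shares repeat sequence with 27267 other places, and by coding length the ratios were −2.81 in CxH and −3.74 in MWT. The order of the libraries is the same on both scales. For Cfl2 to Cfl1 the log2 ratio was −4.67 in CxH and −3.23 in MWT by transcript, and −2.87 and −1.42 by coding length. For Arpc5l to Arpc5 the direction itself depended on the length, with 0.26 in CxH by transcript and −0.28 by coding length. Sequence shared within a pair was limited: the coding and other transcript bases of Arpc1a and Arpc1b that aligned (1097 bases) were 72.9% identical, those of Arpc5 and Arpc5l (480 bases) 70.0%, and those of Cfl1 and Cfl2 (495 bases) 72.3%. The longest identical run was 21 bases for the first 2 pairs and 11 bases for the cofilins. The GC and length correction reduced several shifts within a pair. In CxH vs. CxWT the log2 ratio of Cfl2 to Cfl1 shifted by −1.31 without it and −0.60 with it, and that of Arpc5l to Arpc5 by 0.17 and 0.02. The shift for Cfl2 in MH vs. MWT was −1.03 and −0.60, and that for Arpc1b to Arpc1a 0.50 and 0.27.

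Calls between 2 libraries used the Poisson likelihood ratio test at p under 0.05, with a log2 ratio of 0.7 or more in either direction. Such a call compares 2 libraries and not 2 conditions. In CxH vs. CxWT 3 of the 10 members were called, Arpc1b and Arpc3 higher and Cfl2 lower in CxH, where 20.9% of all genes were called (9.46% higher, 11.5% lower). 7 of the 8 Arp2/3 subunits had a log2 ratio above 0, and their median was 0.55 against −0.09 over all genes. The exception was Actr2, which lay above 0 under TMM or DESeq2 scaling and after the GC correction. That correction left 3 calls, with Arpc2 at 0.72 in place of Cfl2, where 17.2% of all genes were called with it.

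In MH vs. MWT 1 of 10 was called, Arpc5l, lower in the library labelled MH, where 25.0% of all genes were called (12.3% higher, 12.7% lower). Here 6 of the 8 subunits were below 0, with a median of −0.14 against −0.07 over all genes, and Arpc2 and Arpc3 were above 0 at 0.32 and 0.16. After the GC correction 4 were above and 4 below 0, and Arpc2, at 0.74, passed the threshold, where 17.7% of all genes were called with the correction. These directions are stated by label, and the library labelled MH had the higher Ids level. Without the GC correction the 6 subunits were thus higher in MWT, the library of this pair with fewer Ids reads.

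The effect as labelled differed between the areas by more than counting error for 9 of the 10 members. The log2 ratio in Cx minus that in M was 1.58 ± 0.10 for Arpc5l, 1.20 ± 0.17 for Arpc1b, 1.06 ± 0.054 for Arpc1a, 0.93 ± 0.076 for Arpc4 and 0.71 ± 0.058 for Arpc3. It was smaller for Arpc5, at 0.41 ± 0.087, and for Arpc2, at 0.24 ± 0.072. For Cfl1 and Cfl2 it was negative, at −0.12 ± 0.025 and −0.41 ± 0.061, and for Actr2 the difference of 0.07 had an interval from −0.02 to 0.16. For Arpc2 the difference between areas was lost with the GC correction, which gave 0.72 in Cx and 0.74 in M. The same correction lowered the difference to 0.32 for Arpc3 and 0.24 for Arpc5, and moved that of Cfl1 to −0.36, that of Cfl2 to −0.36 and that of Actr2 to 0.12. The ArpC1 and ArpC5 alternates thus head this order, while both cofilins had the same sign in the 2 areas. No spread between pools is available, so a difference between areas beyond counting error could not be tested.

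**Figure D3:**
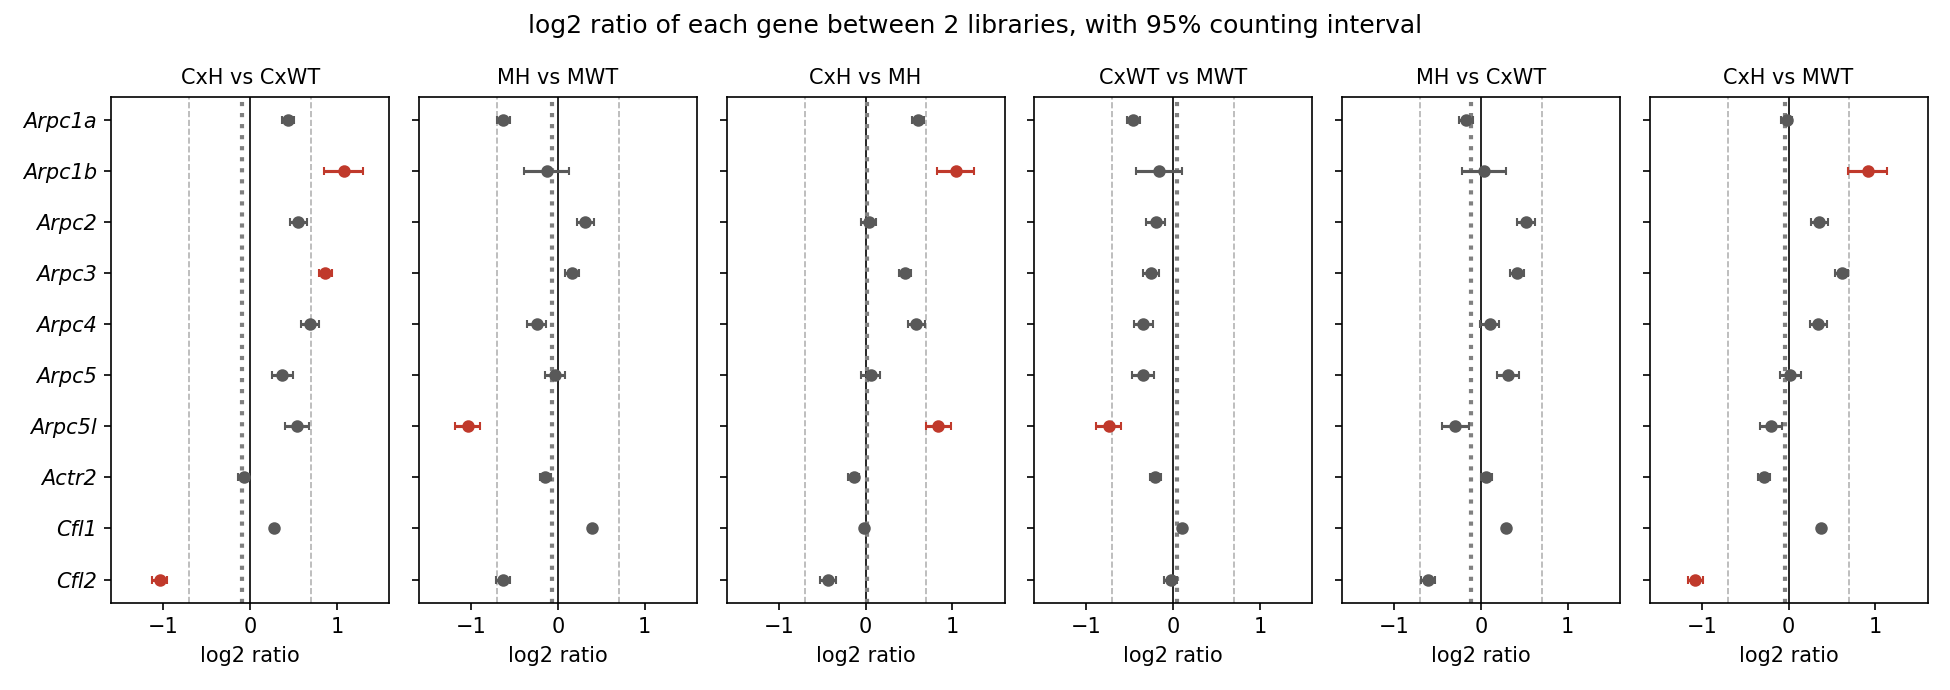
log2 ratio of each of the 10 genes in the 6 pairs of libraries, first library over second, with 95% counting intervals; red points were called (p under 0.05 and at least 0.7 in size, dashed lines), and the dotted line is the median over all genes. In CxH vs. CxWT 7 of the 8 Arp2/3 subunits lie above 0, in CxWT vs. MWT all 8 lie below 0, and in MH vs. CxWT no member was called.

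The remaining pairs set libraries side by side that share a genotype label, an area marker profile or an Ids level. In CxH vs. MH, both labelled Ids-ko and both high in cortical markers, 3.50% of all genes were called (2.43% higher, 1.06% lower), and of the members Arpc1b (1.04 ± 0.11) and Arpc5l (0.84 ± 0.072) were called, both higher in CxH. 7 of the 8 subunits were above 0, with a median of 0.52 against 0.01 over all genes. Arpc2 was among them at 0.04 and lay below 0 with column totals as scaling, and Actr2 was the exception at −0.14. Cfl1 stood at −0.02 ± 0.016, an interval that includes 0, and Cfl2 was at −0.44 ± 0.047. After the GC correction all 8 subunits were above 0, with Actr2 at 0.15, and Cfl2 was at −0.10.

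In CxWT vs. MWT, both labelled wt and both high in midbrain and diencephalon markers, 7.54% of all genes were called (5.43% higher, 2.11% lower), and of the members Arpc5l alone, lower in CxWT at −0.74 ± 0.072. All 8 subunits were below 0, from −0.74 to −0.16, with a median of −0.30 against 0.04 over all genes. That count held with each of the 3 other scalings, but after the GC correction Arpc2, Arpc3 and Actr2 lay above 0, the other 5 subunits below, and Arpc5l at −0.54 was no longer called. In both of these pairs the library with fewer Ids reads, CxH in one and MWT in the other, also had the higher level of 7 subunits in the first pair and of 8 in the second, with aligned reads as scaling. These 2 pairs share no library. The summed microglia markers were higher in the same libraries, and their part in the difference was not tested.

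In MH vs. CxWT, the pair with the closest Ids levels, 15.3% of all genes were called (6.41% higher, 8.89% lower) and 0 of the 10 members. The largest log2 ratios were −0.61 ± 0.040 for Cfl2 and 0.52 ± 0.051 for Arpc2. The counting intervals of 7 members excluded 0. In CxH vs. MWT, the 2 libraries with the lower Ids levels, 30.7% of all genes were called (15.6% higher, 15.1% lower), and of the members Arpc1b (0.91 ± 0.11) and Cfl2 (−1.07 ± 0.045). After the GC correction Cfl2 stood at −0.19 and was no longer called, Arpc1b at 0.75 still was, and Arpc2 and Arpc3 passed the threshold at 0.81 and 0.89, where 15.5% of all genes were called with the correction.

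Summed over the 8 subunits, Arp2/3 reads came to 504 RPM in CxH against 372 in CxWT, and 410 in MH against 466 in MWT, and cofilin reads to 476, 449, 497 and 426 RPM in the same order. After correction for GC content and length the Arp2/3 sum was 543 RPM in CxH against 370.5 in CxWT, and 438 in MH against 410.0 in MWT, so that the order of MH and MWT turned. The ratio of cofilin to Arp2/3 reads, which does not depend on the library total, was 0.946 in CxH and 0.914 in MWT, and 1.21 in CxWT and 1.21 in MH. With that correction it was 0.859 in CxH against 1.22 in CxWT, and 1.21 in MH against 0.966 in MWT. The 2 libraries with fewer Ids reads therefore had the lower ratio on both scales.

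The remaining members of the complex and of the cofilin family were set beside these genes. Actr3, the Arp3 subunit, was at 53.6 RPM in CxH against 50.4 in CxWT, and 55.6 in MH against 56.9 in MWT. Ordered by level, no neighbours differed beyond counting error, but CxWT was below MH (log2 ratio of MH vs. CxWT 0.14 ± 0.047) and below MWT (−0.18 ± 0.050 in CxWT vs. MWT). Actr3b, its relative of brain, was at 40.5, 28.8, 43.9 and 27.2 RPM and took 43.1% of the reads of the Arp3 pair in CxH and 44.1% in MH against 36.4% in CxWT and 32.3% in MWT. The log2 ratio of Actr3b to Actr3 shifted by 0.40 in CxH vs. CxWT and 0.72 in MH vs. MWT, and by 0.08 and 0.48 with the GC correction (GC content 50.8% for Actr3b and 43.2% for Actr3). Dstn, destrin or ADF, the third member of the cofilin family, was at 77.1, 100.1, 82.1 and 112.7 RPM, with the same order of libraries as Cfl2. With the GC correction its log2 ratio went from −0.38 to −0.16 in CxH vs. CxWT and from −0.46 to −0.07 in MH vs. MWT. None of the 3 genes was called in any of the 6 pairs, though after the GC correction Actr3b passed the threshold in MH vs. MWT.

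Among the activators of Arp2/3, of which 21 of 22 listed genes were measured, 4 were called higher and 0 lower in CxH vs. CxWT, with a median log2 ratio of 0.17. Over all genes 20.9% were called in this pair, so the number of calls in the list is near that share. Wipf3, a WASP-interacting protein, reached 1.79 ± 0.040 and Wasf1, the WAVE protein of neurons, 1.23 ± 0.046. Abi3, a WAVE complex member of myeloid cells, stood at 0.93 ± 0.059 and Hcls1, the cortactin relative of blood cells, at 0.73 ± 0.14. In MH vs. MWT, Wasf1 (1.39 ± 0.052) and Wipf3 (1.42 ± 0.041) were called again, both higher in MH, where 25.0% of all genes were called, and the median was 0.23. Wasf1 and Wipf3 were high in CxH and MH alike, at 93.8 and 90.6 RPM for Wasf1 against 39.9 in CxWT and 34.7 in MWT, as the cortical markers were. Cyfip2, another WAVE complex member, was called in CxH vs. MWT at 0.76 ± 0.017. After the GC correction Abi3 (0.63) and Hcls1 (0.57) in CxH vs. CxWT and Cyfip2 (0.57) in CxH vs. MWT were no longer called. With the same correction Whamm, a WASP family member, was called lower in CxH vs. CxWT (−0.86), and Abi1 (0.77) and Brk1 (0.79), both of the WAVE complex, were called higher in MH vs. MWT.

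Of 9 measured genes that inhibit Arp2/3 or remove branches, 1 was called in CxH vs. CxWT and 2 in MH vs. MWT, all higher. Over all genes 20.9 and 25.0% were called in these pairs (9.46 and 12.3% higher), and a difference of the list from these shares was not tested. Coro1a, a coronin of leukocytes and neurons, was called higher in CxH vs. CxWT (0.77 ± 0.050). In MH vs. MWT Coro1a (1.88 ± 0.067) and Coro2b (0.97 ± 0.037), a coronin of brain, were called higher. The median over the list was 0.12 in the first comparison and 0.03 in the second. No gene of this list was called lower in any of the 6 pairs. After the GC correction the list had 0 calls in CxH vs. CxWT, with Coro1a at 0.52, and Coro1a alone in MH vs. MWT, with Coro2b at 0.49.

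The 19 kinases, phosphatases and cofactors of cofilin had 3 genes higher and 2 lower in CxH vs. CxWT, with a median of −0.16, where 20.9% of all genes were called, a share near that of the list. Cap2 (0.92 ± 0.032) and Cap1, cyclase-associated proteins that help cofilin recycle actin, and Twf2, a twinfilin (0.92 ± 0.064), were higher. Tesk2, a kinase that phosphorylates cofilin, was lower at −0.90 ± 0.15, and so was the p21-activated kinase Pak3. In MH vs. MWT, with 25.0% of all genes called, 4 were higher and 0 lower, with a median of 0.29, among them Cap2 (0.87 ± 0.034) and Twf2 (0.85 ± 0.071), with the kinase Pak4 at 0.94 ± 0.14 and the slingshot phosphatase Ssh3. Tesk1, a relative of Tesk2, was called higher in CxH vs. MWT at 1.12 ± 0.049. Limk1, the LIM kinase that inactivates cofilin, was called in MH vs. CxWT at −0.90 ± 0.044. The GC correction took the calls of Twf2 (0.65) and Pak3 (−0.33) in CxH vs. CxWT, of Ssh3 (0.38), Twf2 (0.54) and Pak4 (0.35) in MH vs. MWT, and of Tesk1 (0.06) in CxH vs. MWT. It added Rock2 (0.71), a kinase upstream of the LIM kinases, in CxH vs. CxWT, and Limk1 (−0.85) and the cofilin phosphatase Pdxp (−0.94) in MH vs. MWT, where the list then had 1 gene higher and 2 lower.

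Of 8 actins, profilins and capping proteins, Capza1, a subunit of the capping protein, was the 1 gene called in each genotype comparison as labelled, lower at −1.15 ± 0.067 in CxH vs. CxWT and −0.90 ± 0.068 in MH vs. MWT. Over all genes 11.5 and 12.7% were called lower in these pairs, near the share of this list. Actb, β-actin, stood at 0.55 ± 0.018 and 0.20 ± 0.019 and was not called. In CxH vs. MWT the profilin Pfn1 was higher at 0.86 ± 0.064, and in CxH vs. MH the capping protein Capg of macrophages was higher at 0.81 ± 0.20. With the GC correction Capza1 in MH vs. MWT (−0.57), Pfn1 (0.68) and Capg (0.58) fell short of the threshold, and Capg was called lower in MH vs. MWT (−0.79).

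Markers of other cells moved with several members. The summed level of 18 microglia markers was 1118 RPM in CxH against 602 in CxWT, and 692 in MH against 918 in MWT, and none of them was at 0 in any library. In CxH vs. CxWT, where 9.46% of all genes were called higher and 11.5% lower, 11 of 18 were called higher and 0 lower, with a median of 0.88. In MH vs. MWT, with 12.3% of all genes higher and 12.7% lower, 1 (Selplg) was higher and 5 lower, with a median of −0.35. After the GC correction 12 were higher in CxH vs. CxWT, and 0 were higher and 7 lower in MH vs. MWT. Among them Fcrls was at 1.83 ± 0.069 in CxH vs. CxWT, and Ctss at −1.45 ± 0.046 and Tyrobp at −1.50 ± 0.10 in MH vs. MWT. Arpc1b shared the high level in CxH but not that in MWT: its reads came to 1.29% of the summed microglia marker reads in CxH against 1.14% in CxWT, and 1.01% in MH against 0.836% in MWT. Arpc5l was high in both CxH and MWT, as the microglia sum was. In pooled tissue, fewer cells of a type and less RNA per cell cannot be told apart, and the part of microglia in these differences was not tested.

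The 11 measured actin regulators of leukocytes summed to 189 RPM in CxH against 109 in CxWT, and 155 in MH against 107 in MWT, with 6 called higher and 0 lower in CxH vs. CxWT (9.46% of all genes were called higher), among them Arhgdib (1.27 ± 0.15) and Fermt3 (1.16 ± 0.19), or 4 higher after the GC correction. Coro1a is part of that sum and was at 64.6 RPM in CxH and 70.7 in MH, above 37.9 in CxWT and 19.2 in MWT. Without it the other 10 genes summed to 125 RPM in CxH against 71.2 in CxWT, and 84.5 in MH against 87.4 in MWT, so that the order of MH and MWT turned. Of the 11 genes 5 were above 0 and 6 below in MH vs. MWT, with a median of −0.05. Lcp1 was lower in MH vs. MWT, at −1.07 ± 0.11. Without replicates the order of these sums beside that of Arpc1b is a description of 4 libraries. Oligodendrocyte markers (10 genes) summed to 5046 RPM in CxH against 9539 in CxWT, and 5248 in MH against 7692 in MWT. The low and high libraries were those of Cfl2 and Dstn without the GC correction. Astrocyte markers (10 genes) summed to 4259 RPM in CxH against 3344 in CxWT, and 3468 in MH against 4064 in MWT. Endothelial markers (10 genes) summed to 252 RPM in CxH against 187 in CxWT, and 205 in MH against 226 in MWT. Both sums were higher in CxH and MWT than in CxWT and MH. So were the microglia sum, Arpc1a, Arpc4, Arpc5l and, without the GC correction, the summed Arp2/3 reads. For each list a pair of genes set this order in 1 area. Of the astrocyte markers 5 were above and 5 below 0 in CxH vs. CxWT, and without Slc1a2 and Gfap their sum was 2123 RPM in CxH against 2205 in CxWT, and 1874 in MH against 2512 in MWT. Of the endothelial markers 5 were above and 5 below 0 in MH vs. MWT, and without Ly6c1 and Slco1a4 their sum was 157 RPM in MH against 153 in MWT, and 197 in CxH against 135 in CxWT. The part of these cells in the members' levels was not tested.

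**Figure D4:**
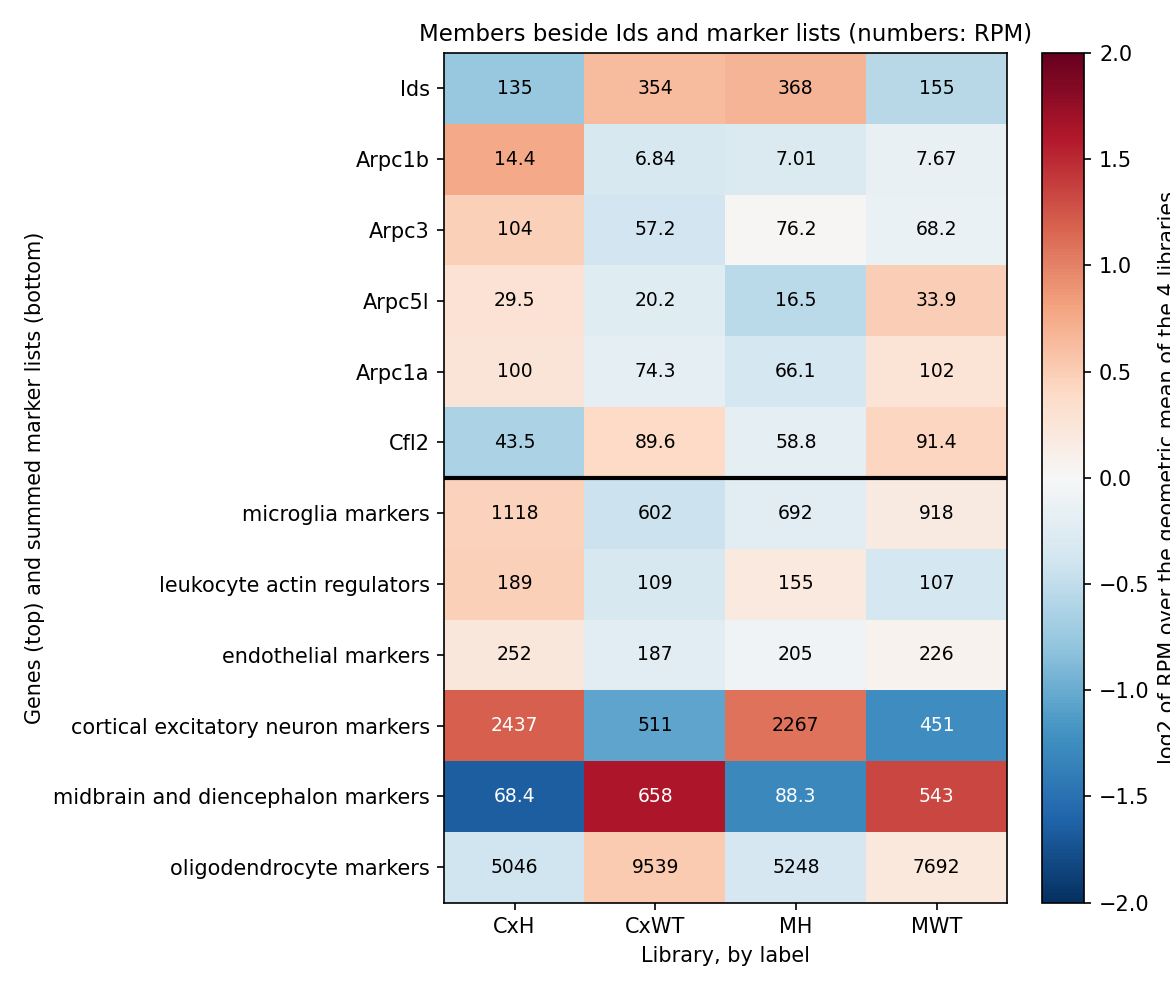
Level in RPM (printed in each cell) of Ids and of 5 members, and summed RPM of 6 marker lists, in the 4 libraries by label; colours give the log2 of the level over the geometric mean of the 4 libraries. Ids is lower in CxH and MWT, cortical markers are high in CxH and MH, midbrain and diencephalon markers in CxWT and MWT, and Arpc5l and Arpc1a are high in the same 2 libraries as the microglia sum, CxH and MWT.

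The level of 4 members spanned 0.7 or more on the log2 scale over the 4 libraries, and for these the nearest centred profiles were looked up among 9475 genes that had 200 reads or more in each library. Nearest to Arpc1b, with a largest log2 difference of 0.10 to 0.14 in any library, were Vwf, Laptm5 and Itgb5, of which Vwf is an endothelial and Laptm5 a microglial gene. Nearest to Arpc5l were Cd63 (0.05), Lcp1 (0.07) and Gusb (0.10). Lcp1 encodes plastin of leukocytes, an actin bundler, while Cd63 and Gusb encode a lysosomal membrane protein and a lysosomal enzyme. Arpc3 lay nearest to Cdh5 (0.05), Ybx1 and Ttc7, and Cfl2 to Camk2d (0.04), Zfp941 and Gm14288. With 4 libraries, many genes share a profile by their number alone, and the likeness is a description.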

How the data were processed

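PolyA RNA of 7 mice per condition was sequenced by the authors on a SOLiD 3 Plus instrument and aligned with PASS to the mm9 genome, best hit only; the read length and gene annotation are not given in the sources used here. The deposited counts are reads aligned to a single gene, for genes whose reads covered most of their length. Entrez IDs were matched to RefSeq symbols (12690 of 12700 genes), and positions, GC content and length came from GENCODE vM1 (12275 genes with GC and length).

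RPM are counts over the aligned reads the study gives for each library, 1 library per group. Reads on genes were 56.6 to 61.0% of these, and the median gene had 567 to 738 reads. A count of 3 reads, the floor that a count of 0 allows, equals 0.0779 to 0.104 RPM. Each pair of libraries was compared over all genes by the Poisson likelihood ratio test, with calls at p under 0.05 and a log2 ratio of 0.7 or more in either direction. A count of 0 was set to 1 for ratios. Intervals are exact or normal at 95% and cover counting error only.

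The 10 members and the gene lists were chosen with earlier results of these data known. The results of 1 gene list are not reported here. Named were the members, Ids, up to 4 called genes a list with the largest ratios, and the nearest 3 profiles of members spanning 0.7 or more; for the marker lists of neurons, astrocytes, oligodendrocytes and endothelium sums are given in place of names. Hcls1, Cap1, Pak3, Ssh3, Limk1, Selplg, Lcp1, Tesk2, Slc1a2, Gfap, Ly6c1, Slco1a4, Whamm, Abi1, Brk1, Rock2, Pdxp, En1, Sox14, Nr4a2, Actr3, Actr3b, Dstn and Actb were chosen after their values were seen. Alternatives were column totals, TMM (edgeR 4.0.16) and DESeq2 1.42.0 factors as scaling only, a filter of 100 reads in every library, 0.5 added to counts, a threshold of 1, and a correction of log2 ratios for GC content and transcript length (polynomial of degree 3), in which the p of the uncorrected counts was kept. Marker sums without the genes that weigh most in them were added after seeing the data. The procedure was tested on simulated counts with 200 changed genes, drawn with Poisson counting error only. These counts held no spread between pools and no dependence on GC content, so the simulation does not cover either. Copies were searched with BLAST, and promoters came from RefSeq (9 of 10 members had an entry; Arpc5l did not match). Calculations ran in R 4.3.3 and in Python 3.11.15 with scipy 1.17.1.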

Additional observations from a re-analysis of the deposited data

Results flagged for a closer look

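For 3 members and for Ids the log2 ratios of the 2 areas had opposite signs, each with a counting interval that excludes 0. The difference between pools was not tested, as each area has 1 library per genotype label. Arpc1a stood at 0.44 in CxH vs. CxWT and at −0.63 in MH vs. MWT. Arpc4 stood at 0.69 and −0.24, and Arpc5l at 0.54 and −1.04. Ids stood at −1.39 and 1.24, so its reads went against the genotype labels in M, and the 3 subunits were higher in CxH and MWT, the libraries with fewer Ids reads.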

How the results depend on the processing

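The 10 members were compared in 6 pairs, and of these 60 log2 ratios 14 moved by more than their counting error under each other scaling (column totals, TMM or DESeq2 factors), 38 under the GC and length correction, and 0 with a filter of 100 reads or 0.5 added to counts. No called ratio changed sign. With TMM or DESeq2 factors Arpc4 joined the calls in CxH vs. CxWT, making 4. The scalings shifted the median over all genes by at most 0.11 (log2), in MH vs. CxWT with TMM or DESeq2 factors and, downwards, in CxH vs. MWT with column totals. They moved the share of higher calls among all genes from 45.2 to 56.0% in CxH vs. CxWT and from 41.9 to 54.2% in MH vs. CxWT (TMM). With column totals that share went from 69.6 to 58.4% in CxH vs. MH, from 72.0 to 55.2% in CxWT vs. MWT and from 50.8 to 39.1% in CxH vs. MWT. The GC and length correction left 3 member calls in CxH vs. CxWT, with Arpc2 in place of Cfl2, and gave 2 in MH vs. MWT (Arpc2, Arpc5l) and 0 in CxWT vs. MWT. It also lowered the calls over all genes from 958 to 364 in CxWT vs. MWT, from 3895 to 1903 in CxH vs. MWT and from 444 to 288 in CxH vs. MH. With the filter of 100 reads those calls went from 444 to 201 in CxH vs. MH and from 958 to 628 in CxWT vs. MWT. At a threshold of 1 they were 1401 in CxH vs. CxWT (from 2658), 1642 in MH vs. MWT (from 3170), 143 in CxH vs. MH, 295 in CxWT vs. MWT, 1064 in MH vs. CxWT (from 1943) and 1961 in CxH vs. MWT. At that threshold Arpc3 lost its call in CxH vs. CxWT, leaving 2 (Arpc1b, Cfl2), and 1 member remained called in CxH vs. MH (Arpc1b), 0 in CxWT vs. MWT and 1 in CxH vs. MWT (Cfl2).

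By coding length the log2 ratio of Arpc1b to Arpc1a was −2.81 in CxH against −3.45 in CxWT, and −3.25 in MH against −3.74 in MWT, that of Arpc5l to Arpc5 −0.28, −0.45, −1.06 and −0.052 (same order), and that of Cfl2 to Cfl1 −2.87, −1.55, −2.45 and −1.42. By the longest transcript, the GC and length correction moved Arpc5l to Arpc5 from 0.26 to 0.14 in CxH, and Cfl2 to Cfl1 from −4.67 to −4.13 in CxH, from −3.36 to −3.53 in CxWT and from −3.23 to −3.63 in MWT. No paired analysis was possible because each condition has 1 library, and for the same reason no library could be left out. Depth limits Arpc1b most, at 222 to 555 reads.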
